A study of Mus musculus with 17 samples.

Results

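Bcl6 encodes a zinc finger repressor of transcription that B cells need to form germinal centers. Chromatin accessibility at this gene was compared between naive B cells (abbreviated nB), germinal center B cells specific for phycoerythrin (GCB) and plasma cells of the bone marrow (BMPC), in mice whose B lineage had or lacked Dnmt3a and Dnmt3b, the enzymes of de novo DNA methylation. The Bcl6 regions were all accessible regions whose transcript symbol or nearest start symbol in the deposited table was Bcl6, which held for 16 of the 66177 regions. All 16 carried Bcl6 as the transcript symbol and 14 also as the symbol of the nearest start. The 2 without it, which lay 34.7 and 29.7 kb downstream of the Bcl6 start, had Rtp2 as the nearest start.

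Accessibility was measured by ATAC-seq, in which a transposase cuts open chromatin and leaves sequencing adapters there. The nB (B220+ Fas- GL7-) were sorted from the lymph nodes of unimmunized male mice, as 3 Dnmt3-sufficient (C) and 2 Dnmt3-deficient (KO) libraries from 1 mouse each. The GCB (B220+ Fas+ GL7+ PE+) came from lymph nodes 30 days after immunization with phycoerythrin (PE) in complete Freund's adjuvant, as 2 C and 4 KO libraries, each from a pool of 2 mice. In C there was 1 female and 1 male pool, and in KO 3 female pools and 1 male pool. The BMPC (CD138+) came from the bone marrow of female mice 30 days after the same immunization, as 3 C and 2 KO libraries from 1 mouse each. Mice were aged 8 to 12 weeks when experiments began, and so were older when GCB and BMPC were taken, on the background B6;129S4-Dnmt3atm3.1Enl Dnmt3btm5.1Enl/Mmnc, and libraries were made from 3000 to 5000 sorted cells. All animals, C included, carried floxed alleles of both methyltransferases. Both genotypes were Dnmt3afl/fl and Dnmt3bfl/fl, and KO mice also carried 1 allele of a Cre expressed in the B lineage, which C mice lacked, so that deletion was limited to that lineage. No group carried Cre without floxed alleles, so the deletion and the Cre allele cannot be told apart.

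BCL6 holds B cells in the germinal center state by recruiting corepressors such as NCOR and BCOR to genes of cell cycle arrest, DNA damage responses, migration and plasma cell differentiation. Among these is Prdm1, whose product BLIMP1 in turn represses Bcl6 in plasma cells. BCL6 also binds and represses its own promoter. Its transcription in B cells depends on signals that act through STAT factors and on distant enhancers far upstream of the start.

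Bcl6 lies on the minus strand of chromosome 16, and the table places its transcript at chr16:23965138-23988698 of mm9. The first start in GENCODE vM1 and in RefSeq lay at 23988938, 240 bp further upstream. Regions are named here by the distance of their midpoint from the table's start. The 16 regions spanned 232.62 kb, covered 9135 bases and had a median width of 637 bp, from 165 to 1088 bp. Of these, 3 lay beyond the 3′ end of the transcript, 2 in introns, 1 over the start (the promoter region, chr16:23988595-23989233), 2 within 50 kb upstream and 8 between 50 and 200 kb upstream. No GENCODE gene overlapped the 13 regions outside the transcript and its start. The largest gap between neighboring regions, 63.674 kb, separated the 23.8 kb upstream region from the one at 88.1 kb.

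The sequences below are shown because they carry the main patterns. All but the last are the central 200 bases of a region. The regions at 146.3 and 29.7 kb were open in GCB only, and that at 183.6 kb opened further in GCB. Those at 163.1 and 177.1 kb were far lower in BMPC than in nB and GCB, and that at 6.0 kb was open in all cell types. The last sequence is the part of the promoter region upstream of the first start. All were read from mm9. Capitals mark every match to the 13 short motifs searched on both strands, which are spelled out with the results on sequence below.
146.3 kb upstream, chr16:24134872-24135071, plus strand: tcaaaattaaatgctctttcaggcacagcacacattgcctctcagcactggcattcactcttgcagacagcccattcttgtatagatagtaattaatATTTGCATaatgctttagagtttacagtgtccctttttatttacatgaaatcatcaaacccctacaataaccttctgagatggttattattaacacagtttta
29.7 kb downstream, chr16:23958877-23959076, plus strand: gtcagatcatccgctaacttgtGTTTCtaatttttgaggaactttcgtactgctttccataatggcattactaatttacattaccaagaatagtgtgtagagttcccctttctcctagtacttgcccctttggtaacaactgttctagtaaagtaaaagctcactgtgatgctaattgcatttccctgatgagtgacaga
183.6 kb upstream, chr16:24172199-24172398, plus strand: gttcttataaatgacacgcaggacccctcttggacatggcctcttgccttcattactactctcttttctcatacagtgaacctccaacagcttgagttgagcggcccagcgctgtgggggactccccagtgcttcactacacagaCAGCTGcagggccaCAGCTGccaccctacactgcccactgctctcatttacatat
163.1 kb upstream, chr16:24151704-24151903, plus strand: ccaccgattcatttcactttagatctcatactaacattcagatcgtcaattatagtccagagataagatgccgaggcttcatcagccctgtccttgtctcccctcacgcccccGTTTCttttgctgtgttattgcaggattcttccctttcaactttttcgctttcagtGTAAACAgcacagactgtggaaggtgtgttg
177.1 kb upstream, chr16:24165686-24165885, plus strand: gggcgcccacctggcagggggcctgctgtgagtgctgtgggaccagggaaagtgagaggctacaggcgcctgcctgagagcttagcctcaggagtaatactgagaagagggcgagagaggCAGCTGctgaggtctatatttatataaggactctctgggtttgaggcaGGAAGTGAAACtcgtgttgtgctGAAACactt
6.0 kb downstream, intronic, chr16:23982555-23982754, plus strand: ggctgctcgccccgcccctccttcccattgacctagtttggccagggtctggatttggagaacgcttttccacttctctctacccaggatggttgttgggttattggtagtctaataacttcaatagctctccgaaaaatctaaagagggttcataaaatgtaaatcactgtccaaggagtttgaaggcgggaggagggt
Upstream of the start, chr16:23988939-23989233, minus strand: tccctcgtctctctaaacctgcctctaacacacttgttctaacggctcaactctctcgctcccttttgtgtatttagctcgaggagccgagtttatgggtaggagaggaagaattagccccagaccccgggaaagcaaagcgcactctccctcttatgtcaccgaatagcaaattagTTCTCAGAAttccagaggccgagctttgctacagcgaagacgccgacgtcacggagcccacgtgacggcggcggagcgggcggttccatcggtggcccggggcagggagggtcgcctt

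Accessibility is given as RPPM, reads in a region per 1000000 reads in all regions of the library. The floor of detection was set at 3 reads, which were worth 0.364 to 3.30 RPPM, since the libraries held 4104875 to 6079018 reads in regions in nB, 907959 to 2280954 in GCB and 5357687 to 8232313 in BMPC. GCB values therefore carried the largest counting error. In sorted bulk cells, fewer cells with an open region and less signal in each cell cannot be told apart. Differences between cell types were tested with limma on log2(RPPM + 1) across all 66177 regions, and calls required a 2-fold change with an adjusted p no higher than 0.01. All fold changes below are on that log2 scale, which understates the change of regions near 0, and stand with the standard error (SE).

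The plot of RPPM by position showed a different profile of the locus in each cell type. In nB the signal sat at the promoter and at the regions 163.1 and 177.1 kb upstream. In GCB it moved away from the promoter toward the upstream regions, with a tall site at 146.3 kb that nB and BMPC lacked. In BMPC little was left outside the promoter and the 2 introns.

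**Figure D1:**
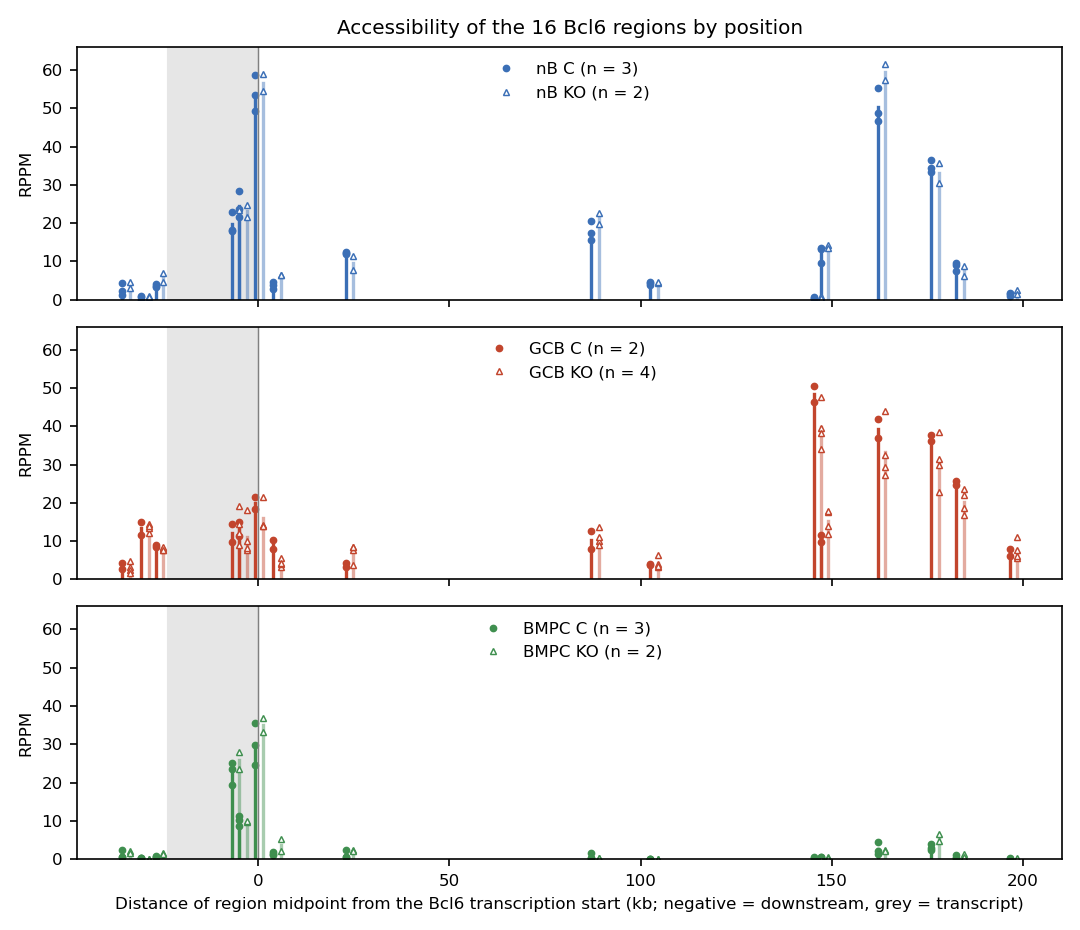
RPPM (vertical axes) of the 16 Bcl6 regions by distance of the region midpoint from the transcription start in kb (horizontal axis), with nB, GCB and BMPC from top to bottom. Lines are group means, filled circles C libraries and open triangles KO libraries, drawn 1 kb to either side of the true position, and the grey band is the transcript. The 146.3 kb upstream region stands at 34.1 to 50.6 RPPM in GCB and at no more than 0.987 RPPM in nB and BMPC.

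The promoter region was most open in nB and least open in GCB. In nB it measured 58.7, 53.5 and 49.3 RPPM in the 3 C libraries and 58.9 and 54.5 RPPM in the 2 KO libraries. In GCB it measured 18.5 and 21.5 RPPM in C and 14.3, 21.6, 14.0 and 14.0 RPPM in KO. In BMPC it measured 35.5, 24.6 and 29.7 RPPM in C and 36.9 and 33.2 RPPM in KO. The 3 cell types did not overlap, with every BMPC library between the nB and the GCB libraries. From nB to GCB the promoter fell by 1.38 in C (SE 0.18, adjusted p = 4.73e-07 by limma) and by 1.79 in KO (SE 0.17, adjusted p = 1.98e-09 by limma). The mean of the nB libraries was 2.69 times that of the GCB libraries in C and 3.55 times in KO. Of all 14332 promoter regions, 6.99% in C and 7.22% in KO were called lower in GCB than in nB. From nB to BMPC the change was -0.84 in C (SE 0.16, adjusted p = 5.64e-05 by limma) and -0.68 in KO (SE 0.19, adjusted p = 0.00479 by limma), both short of 2-fold. The promoter was called higher in BMPC than in GCB in KO, by 1.11 (SE 0.17, adjusted p = 3.52e-06 by limma), a call lost with a pseudocount of 5 RPPM and with quantile normalization, and not in C, where the change was 0.55 (SE 0.18, adjusted p = 0.0115 by limma). The difference between those changes, 0.56, was not called (SE 0.25, adjusted p = 0.534 by limma).

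The 2 intronic regions were open in all 3 cell types. The 6.0 kb downstream region (chr16:23982299-23983012), which lies 930 bases from a second RefSeq start of Bcl6 at 23981369, measured 22.9, 18.3 and 18.1 RPPM in C nB and 23.9 and 23.4 RPPM in KO nB. It measured 9.68 and 14.5 RPPM in C GCB and 12.1, 19.1, 14.5 and 9.09 RPPM in KO GCB. It measured 25.0, 19.3 and 23.5 RPPM in C BMPC and 23.6 and 28.0 RPPM in KO BMPC. The nB and BMPC libraries overlapped, and every GCB library lay below every BMPC library. No comparison between cell types called this region. Its change from nB to BMPC was 0.19 in C, with an interval of 2 SE from -0.22 to 0.59 (adjusted p = 0.456 by limma). It was the only Bcl6 region with the highest group mean in BMPC, in C and in KO alike. The 4.1 kb downstream region (chr16:23984359-23984754) stood at 21.5 to 28.5 RPPM in nB, 7.71 to 18.2 RPPM in GCB and 8.58 to 11.2 RPPM in BMPC. All nB libraries lay above all others. It was called lower in BMPC than in nB in C, where it fell by 1.21 (SE 0.23, adjusted p = 4.43e-05 by limma), and in KO.

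The 146.3 kb upstream region (chr16:24134546-24135399) was accessible in GCB and close to the floor elsewhere. In GCB it measured 50.6 and 46.4 RPPM in the C libraries and 34.1, 39.5, 38.1 and 47.5 RPPM in the KO libraries. In nB it measured 0.244, 0.754 and 0.558 RPPM in C and 0.987 and 0.394 RPPM in KO. In BMPC it measured 0.650, 0.365 and 0 RPPM in C and 0.121 and 0 RPPM in KO. The lowest GCB library was 34.6 times as high as the highest library of the other cell types, and 26 of the 66177 regions, this one included, had a ratio that large. In C the GCB mean was 93.5 times the nB mean, which rested on 8 reads. The C BMPC libraries held 7 reads together and the KO BMPC libraries 1 read. The rise from nB to GCB was 5.04 in C (SE 0.31, adjusted p = 6.33e-13 by limma) and 4.61 in KO (SE 0.29, adjusted p = 9.17e-13 by limma), and ranked 24th and 67th among all regions. It then fell by 5.24 from GCB to BMPC in C (SE 0.31, adjusted p = 1.38e-13 by limma) and by 5.26 in KO (SE 0.29, adjusted p = 3.65e-14 by limma).

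The 29.7 kb downstream region (chr16:23958716-23959238), beyond the 3′ end of the gene, had the same on and off pattern at a lower level. It falls outside the rule by which regions were chosen for full description and was singled out after its values were seen. In GCB it measured 14.95 and 11.7 RPPM in C and 12.1, 13.4, 14.5 and 14.0 RPPM in KO. In nB it stood at 0 to 0.987 RPPM and in BMPC at 0 to 0.390 RPPM. No library of another cell type came near the GCB libraries. The rise from nB to GCB was 3.23 in C (SE 0.34, adjusted p = 1.34e-08 by limma) and 2.94 in KO (SE 0.32, adjusted p = 2.22e-08 by limma). The GCB mean in C was 23.1 times the nB mean, which rested on 8 reads, and 35.4 times without nB C replicate 1. In KO the BMPC libraries held 0 reads here, so that GCB was at least 61.1-fold higher when set against the floor of 3 reads over the group.

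The 183.6 kb upstream region (chr16:24171968-24172630) was open in nB and opened further in GCB. It measured 9.01, 7.54 and 9.49 RPPM in C nB and 8.88 and 6.10 RPPM in KO nB. It measured 24.6 and 25.8 RPPM in C GCB and 18.7, 23.5, 21.9 and 16.8 RPPM in KO GCB. It measured 1.04, 0.365 and 0.156 RPPM in C BMPC and 1.34 and 0.560 RPPM in KO BMPC. The 3 cell types did not overlap. The rise from nB to GCB was 1.44 in C (SE 0.28, adjusted p = 0.000166 by limma) and 1.33 in KO (SE 0.27, adjusted p = 0.000188 by limma). It then fell by 4.15 from GCB to BMPC in C (SE 0.28, adjusted p = 2.71e-12 by limma), the C BMPC libraries holding 11 reads together.

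The largest upstream regions of nB were open in GCB too and far lower in BMPC. The 163.1 kb upstream region (chr16:24151261-24152348), the widest of the 16, measured 55.3, 46.7 and 48.8 RPPM in C nB and 61.7 and 57.3 RPPM in KO nB. It measured 41.8 and 37.0 RPPM in C GCB and 44.1, 27.4, 32.4 and 29.4 RPPM in KO GCB. It measured 4.42, 2.01 and 1.25 RPPM in C BMPC and 2.31 and 2.05 RPPM in KO BMPC. Every GCB library lay below every nB library, yet the change of -0.34 in C was not called (SE 0.25, adjusted p = 0.273 by limma), nor was that of -0.84 in KO (SE 0.23, adjusted p = 0.00417 by limma), which fell short of 2-fold. From nB to BMPC it fell by 3.94 in C (SE 0.22, adjusted p = 2.16e-14 by limma) and by 4.25 in KO (SE 0.27, adjusted p = 8.08e-13 by limma). The nB mean was 19.6 times the BMPC mean in C, or 30.9 times without BMPC C replicate 1, and 27.3 times in KO. That library was the highest of the 3 C BMPC libraries in 14 of the 15 Bcl6 regions with reads in the group, and in 44.3% of all regions with reads there.

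The 177.1 kb upstream region (chr16:24165426-24166146) was about as open in nB as in GCB. It measured 36.5, 34.3 and 33.3 RPPM in C nB and 30.4 and 35.6 RPPM in KO nB. It measured 37.8 and 36.1 RPPM in C GCB and 38.5, 22.9, 29.8 and 31.5 RPPM in KO GCB. It measured 4.03, 2.37 and 2.80 RPPM in C BMPC and 6.68 and 4.67 RPPM in KO BMPC. The nB and GCB libraries overlapped, and their difference in C was 0.09, with an interval of 2 SE from -0.33 to 0.51. From nB to BMPC this region fell by 3.15 in C (SE 0.19, adjusted p = 7.38e-14 by limma) and by 2.36 in KO (SE 0.23, adjusted p = 2.24e-09 by limma). The 88.1 kb upstream region (chr16:24076476-24077130) stood at 15.6 to 22.5 RPPM in nB, 7.96 to 13.6 RPPM in GCB and 0.182 to 1.56 RPPM in BMPC. The 3 cell types did not overlap there either, and the fall from nB to BMPC was 3.56 in C (SE 0.27, adjusted p = 1.08e-11 by limma).

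**Figure D2:**
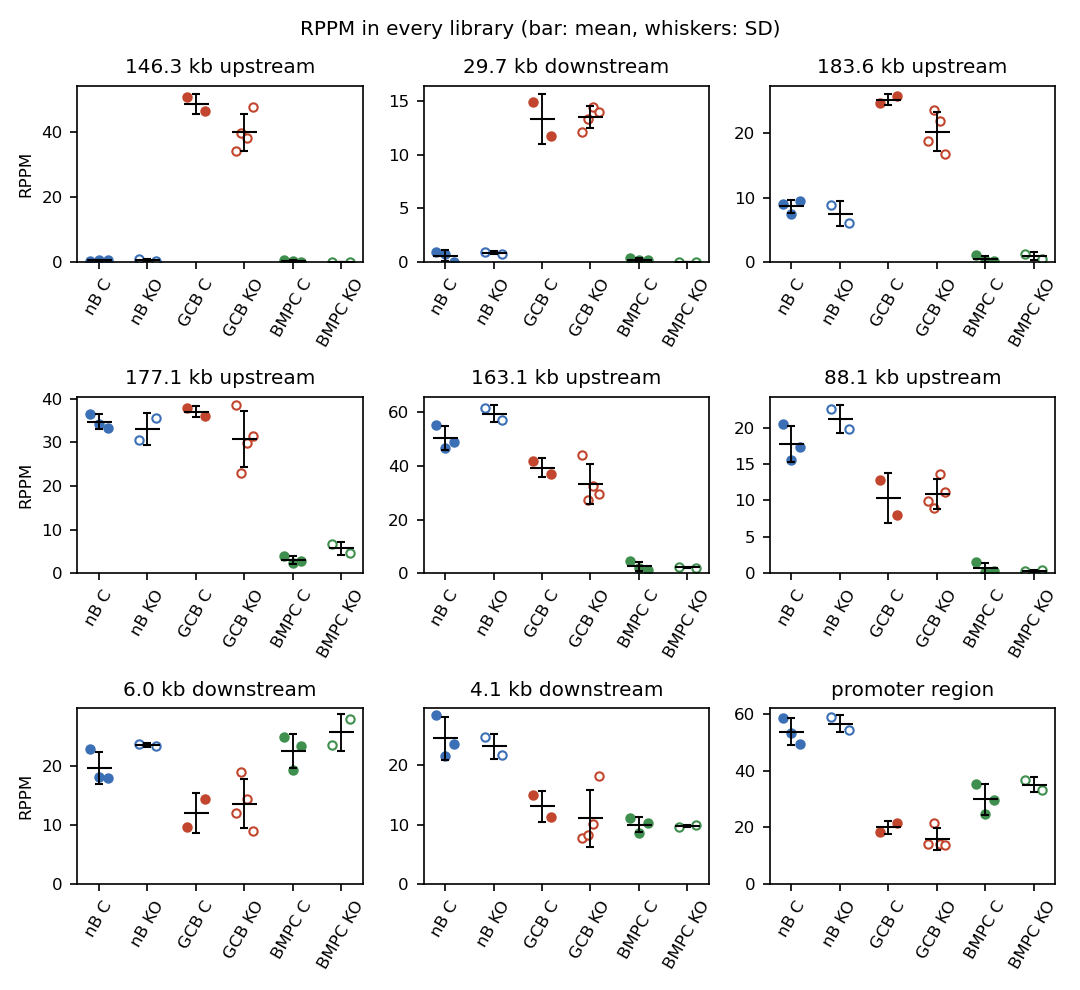
RPPM of 9 Bcl6 regions (1 panel each, with its own vertical scale from 0) in every library of the 6 groups, with filled points for C, open points for KO, the group mean as a bar and the SD as whiskers. The 146.3 and 29.7 kb regions are high in GCB only, and the 6.0 kb intronic region is open in all groups. The 163.1, 177.1 and 88.1 kb regions are lowest in BMPC.

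The remaining 7 regions were smaller. The 34.7 kb downstream region stood at 0.547 to 4.89 RPPM, overlapped between all cell types and was called in no comparison. The 25.9 kb downstream region stood at 7.69 to 8.90 RPPM in GCB, above nB at 3.35 to 6.91 RPPM and BMPC at 0.547 to 1.58 RPPM. The 4.8 kb upstream region ranged from 1.09 to 10.3 RPPM with overlap between all cell types. The 23.8 and 148.2 kb upstream regions stood at 7.87 to 14.3 RPPM in nB and at no more than 2.34 RPPM in BMPC. The 103.6 kb upstream region stood at 3.30 to 6.36 RPPM in nB and GCB, while the 3 C BMPC libraries held 0 reads and the KO BMPC libraries 1 read. Against the floor of 3 reads over the group, C nB was at least 28.0-fold and C GCB at least 25.2-fold higher than C BMPC there. The 197.6 kb upstream region stood at 0.974 to 2.47 RPPM in nB, 5.51 to 11.2 RPPM in GCB and at most 0.373 RPPM in BMPC. Thus 5 of the 16 regions, at 29.7 and 25.9 kb downstream and 146.3, 183.6 and 197.6 kb upstream, had every GCB library above every other library, against 8.71% of all regions.

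Counted over the locus, from nB to GCB in C 6 of the 16 regions were called higher and 2 lower, where 14.2% of all regions were called higher and 8.47% lower. The higher regions were those at 29.7 and 25.9 kb downstream and at 4.8, 146.3, 183.6 and 197.6 kb upstream, and the lower ones were the promoter and the 23.8 kb upstream region. In KO 4 were called higher and 2 lower, against 18.4% and 7.84% of all regions. In C and KO alike the 29.7 kb downstream and the 146.3, 183.6 and 197.6 kb upstream regions were called higher and the promoter lower. The median over the 16 regions was -0.02 in C and -0.19 in KO, against 0.05 and 0.12 over all regions. The calls at 4.8 and 25.9 kb were the least stable, and in C the count of 8 was 3 and 4 with pseudocounts of 0.1 and 5 RPPM. Shares over all regions with those pseudocounts are not given here.

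From nB to BMPC no Bcl6 region was called higher in either genotype by limma, and 10 were called lower in C and in KO, where 18% of all regions were called higher and 20.1% lower in C, and 18.4% and 16.9% in KO. The same 10 regions were called in both genotypes, namely those at 25.9 and 4.1 kb downstream and at 23.8, 88.1, 103.6, 148.2, 163.1, 177.1, 183.6 and 197.6 kb upstream. At an unadjusted p under 0.05 no region was higher either. The median change was -1.34 in C and -1.39 in KO, against 0.03 and 0.08 over all regions. Regions over 10 kb from a start were called lower in BMPC in 25.9% of 35010 cases in C.

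Between GCB and BMPC 12 regions were called lower in BMPC and 0 higher in C by limma, against 19.1% and 11.3% of all regions, with 2 regions, the 6.0 kb intronic region and the promoter, higher at an unadjusted p under 0.05. In KO 11 were called lower and 1 higher, against 19.9% and 12.1% of all regions. The 11 regions lower in KO were also lower in C, and the median change was -2.66 in C and -2.26 in KO, against -0.06 and -0.03 over all regions. The direction of change was the same in C and KO in 12 of 16 regions from nB to GCB and in 16 of 16 in both comparisons with BMPC. The 3 comparisons within a genotype share libraries, so their counts are not independent of each other.

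**Figure D3:**
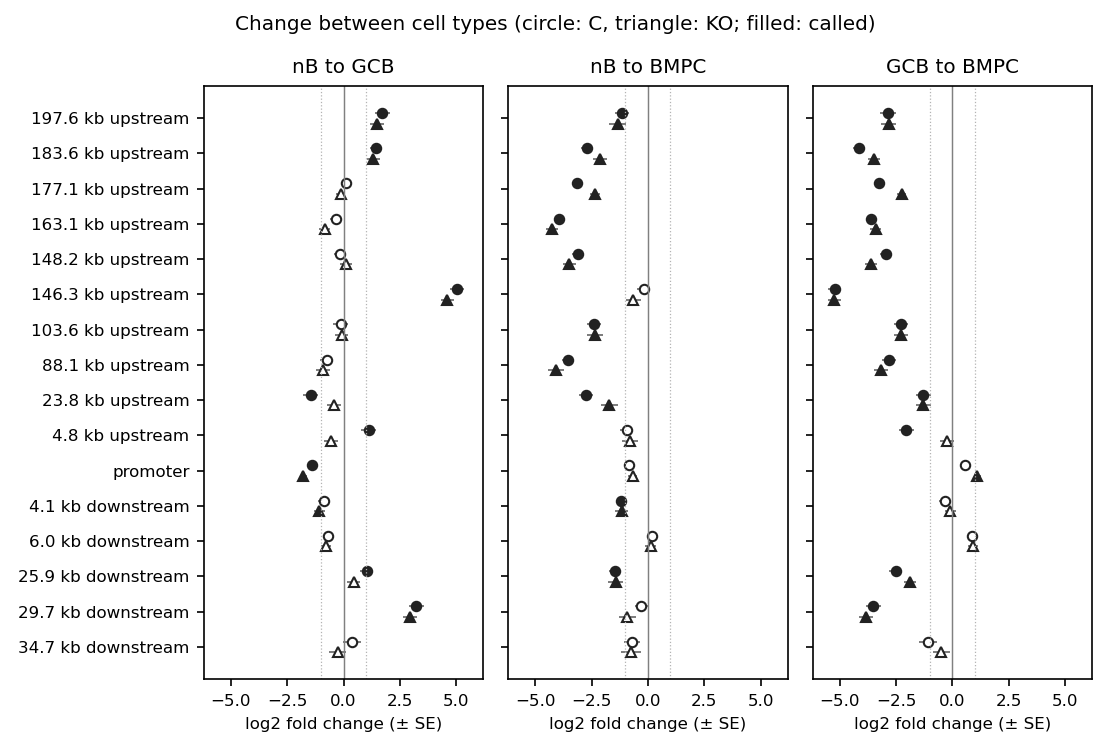
Log2 fold change with SE (horizontal axes) of the 16 Bcl6 regions, ordered by position, from nB to GCB, nB to BMPC and GCB to BMPC, with circles for C, triangles for KO and filled symbols for called regions. Dotted lines mark 2-fold. In BMPC every called region is lower except the promoter against KO GCB, whereas from nB to GCB regions moved both ways, up to 5.04 at 146.3 kb upstream.

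All nB libraries came from unimmunized males and all BMPC libraries from immunized females, and BMPC came from another tissue. Cell type, sex, tissue, immunization and age therefore cannot be told apart between nB and BMPC. Immunization, age and the pooling of mice also went with cell type between nB and GCB, within a sex too. GCB pools of both sexes existed, and a comparison within a sex was added after the data were seen. These pools also took part in the calls, 1 library stood alone in an arm of each comparison but the last, and the counts are a description with no test. Against the single male pool of each genotype, 8 of the 8 regions called from nB to GCB in C and 5 of the 6 in KO had the same direction and at least 2-fold change. The exception was the 4.1 kb downstream region in KO, at -0.33. Against female pools, 12 of the 12 regions called from GCB to BMPC in C and 12 of the 12 in KO did so.

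The sum over the 16 regions was nearly the same in nB and GCB and much smaller in BMPC. It was 251 ± 18.6 RPPM (SD, n = 3) in C nB and 272 ± 13.7 RPPM (SD, n = 2) in KO nB. In GCB it was 266 ± 4.54 RPPM (SD, n = 2) in C and 239 ± 5.87 RPPM (SD, n = 4) in KO. In BMPC it was 75.1 ± 15.7 RPPM (SD, n = 3) in C and 89.5 ± 0.0856 RPPM (SD, n = 2) in KO. The BMPC libraries, at 61.5 to 92.2 RPPM, lay below all others, which ran from 230.4 to 282 RPPM, and nB and GCB overlapped.

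The makeup of the sum differed between the cell types, and for the far upstream, promoter and intronic shares their libraries did not overlap. The 8 regions 50 to 200 kb upstream held a mean of 52.0% of the sum in nB (50.7 to 52.9%), 68.1% in GCB (65.2 to 70.9%) and 10.4% in BMPC (6.97 to 13.5%). The promoter region held 21.2% in nB, 7.0% in GCB and 39.7% in BMPC. The 2 intronic regions held 17.4%, 10.1% and 42.3%. The 146.3 kb region by itself held 18.3% of the sum in C GCB and 16.7% in KO GCB. Since the shares of a library add up to 100%, a rise in one entails a fall in others.

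**Figure D4:**
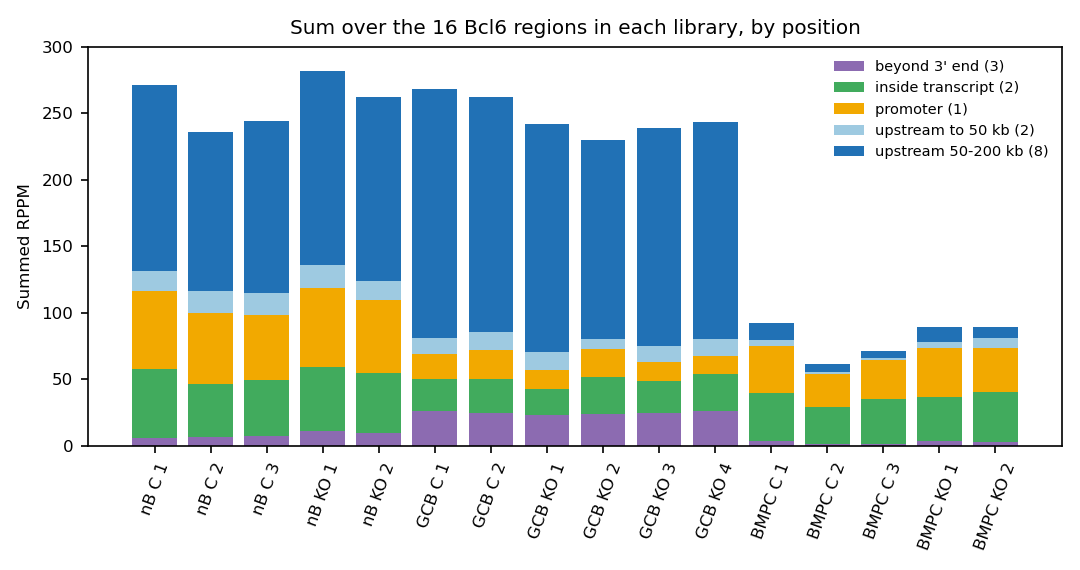
Summed RPPM over the 16 Bcl6 regions (vertical axis) in each of the 16 libraries, stacked by position class with the number of regions in each class in brackets. The BMPC bars reach 61.5 to 92.2 RPPM against 230.4 to 282 RPPM in nB and GCB, and the far upstream class, most of the bar in GCB, is a thin layer in BMPC.

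Per length, the promoter region was the densest site in nB, with a mean of 84.3 RPPM per kb in C, followed by the 4.1 kb intronic region at 62.0, the 177.1 kb upstream region at 48.1 and the 163.1 kb upstream region at 46.2 RPPM per kb. In C GCB the order changed to 56.8 RPPM per kb at 146.3 kb upstream, 55.2 in the narrow 4.8 kb upstream region, 51.2 at 177.1 kb and 38.0 at 183.6 kb, with the promoter at 31.3 RPPM per kb. In C BMPC it was 46.9 RPPM per kb at the promoter, 31.7 at the 6.0 kb and 25.3 at the 4.1 kb intronic region, and no other Bcl6 region exceeded 8.72 RPPM per kb.

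No Bcl6 region was called between KO and C by limma, in groups of 2 to 4 libraries, where changes, large ones included, can go uncalled. On simulated data, described with the processing below, this test recovered 39 to 54% of 4-fold changes between cell types. Differences between genotypes were not simulated. In nB, GCB and BMPC alike the count called was 0 of 16, against 0%, 0.0317% and 0.104% of all regions. With edgeR at the same limits, the study reported far more regions that differed in BMPC. At an unadjusted p under 0.05 there were 1, 2 and 2 regions. Shares of all regions at that unadjusted limit are not given here, for these counts or for the interactions below. On reads recovered from the values, edgeR (by quasi-likelihood and by likelihood ratio) and DESeq2 called 0 in each, with shares over all regions not given here. The interactions, which test whether the difference between KO and C differs between cell types, gave 0 calls of 16 by limma for BMPC against nB, BMPC against GCB and GCB against nB, with 2, 3 and 2 regions at an unadjusted p under 0.05 and with 0%, 0% and 0% of all regions called.

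The difference closest to a call was at the 177.1 kb upstream region in BMPC, where KO at 6.68 and 4.67 RPPM lay above C at 4.03, 2.37 and 2.80 RPPM. The difference was 0.72, with an interval of 2 SE from 0.30 to 1.14 (adjusted p = 0.113 by limma). The next lay in GCB at the 4.8 kb upstream region, where all 4 KO libraries, at 3.18 to 5.51 RPPM, lay below the C libraries at 7.92 and 10.3 RPPM. That difference was -0.97, with an interval from -1.59 to -0.34 (adjusted p = 0.202 by limma). At the promoter the difference was 0.08 in nB (interval -0.28 to 0.43), -0.33 in GCB (interval -0.66 to 0.01) and 0.23 in BMPC (interval -0.12 to 0.59). At the 146.3 kb region it was -0.29 in GCB, with an interval from -0.87 to 0.29, so that a 2-fold change of this GCB site lay outside the interval. KO libraries lay all above the C libraries in 5, 1 and 3 regions and all below in 1, 3 and 1 regions in nB, GCB and BMPC, where 9.38%, 7.47% and 20.02% of all regions had KO all above and 10.98%, 5.52% and 13.8% all below.

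**Figure D5:**
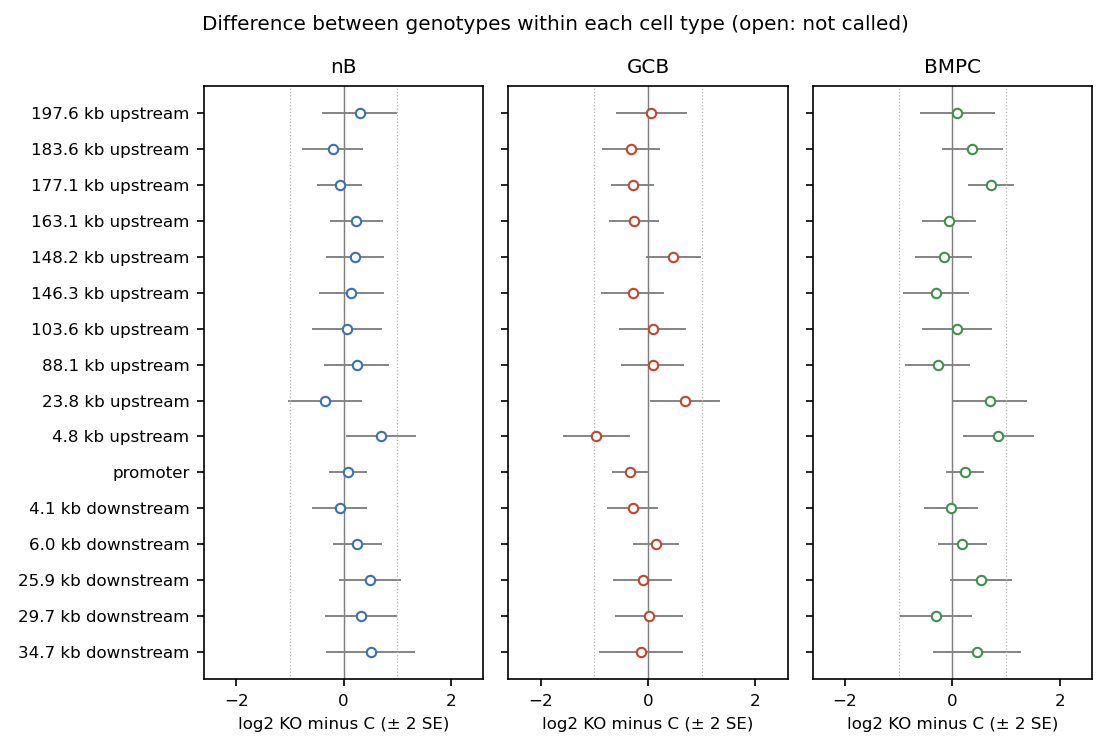
Difference between KO and C (log2, horizontal axes, whiskers 2 SE) of the 16 Bcl6 regions within nB, GCB and BMPC. Symbols are open since no region was called. The values run from -0.97 to 0.86, and the intervals of most regions include 0.

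The sequences printed above differed in the short motifs they held. The motifs were searched in the central 200 bases of each region on both strands, and shares are given over the 65891 regions on named chromosomes. The 146.3 kb region was the only Bcl6 region with the octamer ATGCAAAT, bound by OCT factors of B cells, which 2.92% of all regions held. Its central 200 bases held no other motif of the list, while its full width also held IRF, E2A and AP-1 letters. The composite PU.1-IRF letters GGAAGTGAA occurred in 2 regions, at 4.8 and 177.1 kb upstream, against 1.47% of all regions, and each such match contains the PU.1 letters GGAAGT, which 6 of 16 regions and 23.0% of all regions held. The E2A letters CAGCTG occurred in 3 regions, with 2 copies in the 183.6 kb region, against 14.9% of all regions. The FOXO letters TGTTTAC occurred in 2 regions, at 103.6 and 163.1 kb upstream, against 2.78%, and the IRF letters GAAAC in 5 against 43.1%.

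In those windows the BCL6 letters TTCCNNGAA occurred in 0 of 16 regions against 2.68% of all regions, and the STAT letters TTCNNNGAA, which include every BCL6 match, in 1 against 6.08%. EBF (CCCNNGGGA) and AP-1 (TGANTCA) letters were in 1 region each, against 4.46% and 6.30%. MEF2 (CTATTTTT), NF-kB (GGGNNTTCC) and BLIMP1 (CTTTCAC) letters were in 0 of 16 windows, against 1.55%, 4.22% and 4.42%. Over the full width of the regions, BLIMP1 letters did occur at 23.8, 148.2 and 163.1 kb upstream. BCL6 letters did so at 23.8 kb upstream and in the promoter region. Shares over all regions were not counted at full width.

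Over its whole 639 bases the promoter region held 5 STAT matches, and none of the 14308 promoter regions searched at the same length held as many apart from itself. At least 1 STAT match was present in 12.4% of those windows. Read on the minus strand, the matches were TTCTCAGAA at 23989048 to 23989056, 110 bases upstream of the first start and shown in capitals in the upstream sequence above, and 4 downstream of the start. These were TTCCGAGAA at 23988739 to 23988747, TTCTTAGAA at 23988716 to 23988724 and again at 23988701 to 23988709, and TTCTAGGAA at 23988675 to 23988683. The first and the last of these 4 also matched the BCL6 letters, and 62 of the 14308 windows (0.433%) held 2 or more BCL6 matches. A match describes letters and shows no binding. The promoter region was CpG-rich, with 98.6 CpG per kb, whereas the median was 12.1 over the 16 regions and 14.6 over all regions.

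Promoter regions of genes that act with BCL6 were set beside the locus, 1 region nearest the start for each gene. Of 8 corepressor and turnover genes 7 had a promoter region, Sin3a being without one. Of all promoter regions 8.88% were called higher and 6.99% lower from nB to GCB in C, and 11.7% higher and 7.33% lower from GCB to BMPC in C. From nB to GCB in C 2 of the 7 were called lower and 0 higher by limma, with a change of -1.21 in Ncor1, which encodes a corepressor that BCL6 recruits. None was higher at an unadjusted p under 0.05. In BMPC against GCB in C 4 were called higher, among them Ncor1, Bcor and Ctbp1 by 1.31, 1.22 and 1.23, and Mta3 was called lower. The list's median was -0.79 from nB to GCB and 1.13 from GCB to BMPC, against -0.18 and 0.30 over all promoter regions. The Bcl6 promoter itself changed by -1.38 and 0.55.

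Of 13 germinal center program genes 1 was called higher and 0 lower in GCB than in nB in C by limma, against 8.88% and 6.99% of all promoter regions, though 7 were lower at an unadjusted p under 0.05. In BMPC against GCB in C 3 were called lower, against 7.33% of all promoter regions. Among them were the B cell factors Pax5 and Spib, with Pax5 at 24.3 RPPM in GCB and 2.84 RPPM in BMPC. None was called higher by limma, though 7 were higher at an unadjusted p under 0.05. The median of the list was -0.54 from nB to GCB and 0.53 from GCB to BMPC. Of 7 genes of signals toward Bcl6, Stat5b was called lower in GCB than in nB in C, and Il21r, a receptor that induces Bcl6, was called lower in BMPC than in GCB in C, from 54.8 to 9.54 RPPM.

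Among 15 genes that BCL6 is known to repress, Gpr183 and Cdkn1a were called lower and Cd80 higher in GCB than in nB in C. Over all promoter regions 6.99% were lower and 8.88% higher. In KO Cd69, Gpr183, S1pr1 and Bcl2 were called lower and Cd80 higher, against 7.22% and 10.4%. The values that follow are those of C. Gpr183, a receptor that guides migration, fell from 32.6 to 10.2 RPPM, and Cdkn1a, an inhibitor of the cell cycle, from 17.3 to 6.97 RPPM. In BMPC against GCB in C 5 were called higher, against 11.7% of all promoter regions, and 0 were lower by limma or at an unadjusted p under 0.05. The higher ones were Prdm1, Ccnd2, Gpr183, Cdkn1a and Trp53, with Prdm1 at 31.2 RPPM in GCB and 65.6 RPPM in BMPC. In KO the same genes except Trp53 were called higher and Ccl3 was called lower, against 11.2% and 7.39% of all promoter regions. The list's median was -0.49 from nB to GCB and 0.79 from GCB to BMPC in C. Over the 42 genes of the 4 lists, 0 were called between KO and C by limma in nB, GCB or BMPC, with 0, 8 and 5 at an unadjusted p under 0.05. The share of all promoter regions at that unadjusted limit is not given here, so these counts cannot be set against a background.

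The Prdm1 and Bach2 loci were read by the same rule. Of the 33 regions of Prdm1, which encodes BLIMP1, 11 were called higher and 7 lower in BMPC than in nB in C, and 12 higher and 0 lower in BMPC than in GCB by limma, with 1 lower at an unadjusted p under 0.05. Of the 55 regions of Bach2, a repressor that holds back plasma cell differentiation, 6 were higher and 24 lower in BMPC than in nB in C, and 3 higher and 17 lower in BMPC than in GCB. Over all regions in C, 18% were called higher and 20.1% lower in BMPC than in nB, and 11.3% and 19.1% in BMPC than in GCB.

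The surroundings of Bcl6 followed part of the pattern. The nearest region beyond the upstream end lay 14.946 kb away and carried no gene symbol, and the nearest on the other side belonged to Sst, 54.504 kb away. Within 1 Mb of the Bcl6 start 126 other regions were measured. From nB to BMPC in C 14 were called higher and 52 lower, against 18% and 20.1% of all regions. From nB to GCB in C 12 were called higher and 27 lower, against 14.2% and 8.47%. From GCB to BMPC in C 18 were called higher and 31 lower, against 11.3% and 19.1%. For the large neighbor Lpp, 19 of 52 regions were called lower from nB to GCB in C, and 33 were lower and 1 higher from nB to BMPC.

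Over the 6 group means, the promoter regions most like that of Bcl6 among 10374 compared were those of Fam46a, 1700101E01Rik, Fxyd5, Rin3 and Kcnj1, with root mean square differences of 0.0981 to 0.137 after centering on the log2 scale. For the locus sum, compared with 7244 genes that had at least 3 regions, they were Nucb2, Nxpe4, Slc1a2, D630003M21Rik and Tbc1d30, at 0.0790 to 0.0910.

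Markers were checked as the summed RPPM of their promoter regions. The 5 naive B markers stood at 199.8 to 237 RPPM in nB and at 81.5 to 99.1 RPPM in the other cell types, with Ccr7 and Fcer2a among the 3 called lower in both in C. The 6 germinal center B markers stood at 92.6 to 109.6 RPPM in nB, 168 to 217 RPPM in GCB and 165 to 179 RPPM in BMPC, so the sum did not set GCB apart from BMPC, although Gcsam, called higher in GCB than in nB and lower in BMPC than in GCB in C, did. Of 6 plasma cell markers 4 were measured, at 196 to 214 RPPM in BMPC, 154 to 175 RPPM in nB and 105 to 125 RPPM in GCB. Sdc1, which encodes the CD138 used in the sort, had no promoter region.

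Follicular helper T cells also express Bcl6. The study's staining panels, as its methods give them, served to remove cells with CD90.2, a marker of T cells, and with the myeloid markers CD11b, CD11c and Ly6-G. Of 5 T cell markers only Cd2, which B cells express as well, had a promoter region, at 77.0 to 96.5 RPPM in GCB, 63.1 to 67.9 RPPM in nB and 11.2 to 15.9 RPPM in BMPC. Cd3d, Cd3e, Cd4 and Cd8a had no promoter region. Of 4 myeloid markers only Itgam was measured, at 3.72 to 5.31 RPPM in nB and at most 2.63 RPPM elsewhere, and 2 of 3 erythroid markers stood at 36.3 to 53.5 RPPM in GCB, 47.6 to 60.2 RPPM in nB and 61.3 to 70.8 RPPM in BMPC. The part of other cell types in the Bcl6 values was not tested.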

How the data were processed

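ATAC-seq was analysed in 16 libraries of nB, GCB and BMPC, with groups taken from the cell type and genotype labels. One further KO BMPC sample in the labels was not analysed here. Per the methods, reads were trimmed and aligned to mm9 by Bowtie, peaks came from MACS2 at a q-value limit of 0.01, and the peaks of all samples were merged. The submitters' processing notes list Bowtie 1.1.1, MACS2 2.1.0.20140616, Picard 1.127 and edgeR 3.12.1, while the methods give other versions of Bowtie and MACS2, and what Picard was used for is not given in the sources used here. The authors deposited 1 table that gives for each merged region and library the RPM over reads in regions, which they call RPPM. The table's other columns hold their own comparisons and were not used.

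Values are therefore relative to all accessible regions of a library, and a change over most regions would not show. Gene symbols and distances are those of the table. Every value was a whole multiple of 1 read within 0.001, and the reads recovered in this way were used for count tests as alternatives. Libraries are separate mice (nB, BMPC) or separate pools of mice (GCB), so p-values measure the spread between these. Floors cover counting error only, since without molecular identifiers reads can be copies of one molecule.

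R 4.3.3 with limma 3.58.1 gave the main test, on log2 of RPPM plus a pseudocount of 1, with the 6 groups in a single fit, a variance trend and Benjamini-Hochberg adjustment over 66177 regions. Tested on simulated data in which 200 regions changed 4-fold, it recovered 39% from nB to GCB, 54% from nB to BMPC and 44% from GCB to BMPC, with 0 false calls. In the simulation no other region differed and all regions shared a single dispersion. Far more regions were called in the real data, so these rates need not hold there. Alternatives were pseudocounts of 0.1 and 5 RPPM, a minimum mean of 1 RPPM, quantile normalization, TMM scaling, fitting the compared groups alone, no trend, an adjusted p limit of 0.05, leaving out chrM, chrX and chrY, a replicate block for the GCB pools, leaving out each library in turn, and edgeR 4.0.16 and DESeq2 1.42.0 on the reads. A comparison within a sex was added after the data were seen.

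Regions described in full were the one nearest the start, the 5 with the highest mean, and the 3 with the largest change in favor of nB and of GCB. The 29.7 kb downstream region and the flagged ones fall outside that rule. Sequences and promoter matches came from NCBIM37 (mm9), GENCODE vM1 and RefSeq (GRCm38.p6, of which both Bcl6 promoter sequences matched mm9 exactly and gave the starts). Single values of some listed genes are not reported here, while counts and medians cover the whole lists. The members and gene lists were chosen with earlier results of these data known. Python 3.11.15 with pandas 2.3.3, numpy 2.4.6 and matplotlib 3.10.9 was used for tables and plots.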

Additional observations from a re-analysis of the deposited data

Results flagged for a closer look

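In the 4 KO GCB libraries the promoter region stood at 21.6403 RPPM in 1 pool and at 14.0 to 14.3 RPPM in the others, and the 23.8 kb upstream region at 3.8189 RPPM in the same pool and at 7.71 to 8.39 RPPM in the others. Both were picked out because 1 library lay far from the rest of its group by Dixon's criterion, at which chance picks about 1 in 20 groups, and 2 of the 17 groups tested were.

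At the 4.8 kb upstream region every KO library lay above the C libraries in nB and BMPC and below them in GCB, the log2 difference being 0.7007 for nB, -0.9654 for GCB and 0.8565 for BMPC. The interaction by limma was 1.82 for BMPC against GCB (SE 0.45, adjusted p = 0.163) and -1.67 for GCB against nB (SE 0.45, adjusted p = 0.697), so neither passed the threshold. At the 25.9 kb downstream region the difference was 0.4988 for nB, -0.0974 for GCB and 0.5322 for BMPC, with every library of a group on the stated side. Its interactions by limma were 0.63 for BMPC against GCB (adjusted p = 0.718) and -0.60 for GCB against nB (adjusted p = 0.868).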

How the results depend on the processing

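Counts of Bcl6 regions called between cell types moved with the pseudocount. From nB to GCB in C, 8 calls became 3 with 0.1 RPPM and 4 with 5 RPPM, and from nB to BMPC 10 calls became 6 with 5 RPPM in C and in KO. Leaving out a library gave 5 to 7 calls from nB to GCB in C (5 without GCB C replicate 2), 4 to 7 in KO, 9 to 11 from nB to BMPC in C, 6 to 10 in KO (6 without nB KO replicate 1), and 11 to 13 from GCB to BMPC in each genotype. Genotype and interaction counts stayed at 0 in every setting. Shares of all regions called under each setting, the replicate block below included, are not given here. A shift over all regions therefore cannot be told apart from one at Bcl6. The cause of these shifts was not tested.

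The only pool names shared between genotypes were F2 and M1 of GCB. Their deviations correlated at 0.036 and 0.064. With 2 C libraries, the deviations of those pools mirror each other, so the correlations cannot decide whether the names pair the libraries. With a replicate block on them, from nB to GCB in C 5 regions were called, and 2 uncalled changes turned sign, that of the 4.1 kb downstream region from GCB to BMPC in C to 0.0898 and that of the 163.1 kb upstream region from nB to GCB in C to 0.0608.

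The summed RPPM moved by more than 1 SD without chrM, chrX and chrY to 288 in KO nB, 297 in C GCB, 268 in KO GCB and 93.8 in KO BMPC, with quantile normalization to 279.5 in C GCB, 248 in KO GCB and 86.7 in KO BMPC, and with TMM scaling to 229 in KO GCB and 88.0 in KO BMPC. BMPC stayed lowest in each.

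Of 1240 single-region values under alternatives, 1170 kept direction and side of the threshold, 66 lost a call, 2 gained one and 2 turned sign. The calls at 146.3 kb upstream and 29.7 kb downstream, the promoter from nB to GCB, and the calls at 88.1, 163.1 and 177.1 kb upstream held in all settings run. Depth limits GCB most, where 3 reads were worth 1.32 to 3.30 RPPM.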
